A study of Mus musculus with 12 samples.

Results

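The Fc gamma receptors bind the constant part of immunoglobulin G (IgG) on the surface of myeloid cells. The 4 mouse genes of the family, Fcgr1, Fcgr2b, Fcgr3 and Fcgr4, were taken by gene ID, named through GENCODE M21, out of 55414 gene IDs counted in each of 12 RNA sequencing libraries. All 4 were among the 13403 genes that passed the filter on low counts. The libraries came from osteoclasts, the multinucleated cells that resorb bone, grown from bone marrow macrophages of male mice aged 7 to 8 weeks. M-CSF was given at 30 ng/ml, and RANKL was added from day 3 for 4 days. There were 4 groups of 3 libraries: Notch2 mutant with Hes1 deletion, wild type with Hes1 deletion, Notch2 mutant with Hes1 loxP and wild type with Hes1 loxP. In the loxP groups Hes1 is flanked by recombination sites. Per the design text, mutant and control mice were sex-matched littermates. The labels do not name the Notch2 mutation, its driver or the way Hes1 was deleted, so neither a promoter nor a cell type can be named for either allele.

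Activating Fc gamma receptors (Fcgr1, Fcgr3 and Fcgr4) carry no signalling motif of their own and work through the gamma chain encoded by Fcer1g, whose ITAM, a tyrosine-based activation motif, recruits the kinase Syk. Fcgr2b is the inhibitory member: its cytoplasmic ITIM recruits the inositol phosphatase encoded by Inpp5d. In osteoclast precursors the same gamma chain, paired with Oscar and other receptors, gives the costimulatory signal that RANKL needs to raise the osteoclast regulator Nfatc1.

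The libraries held 13832368 to 19293772 counts assigned to genes. Hes1 had 0, 0 and 2 counts in wild type with Hes1 deletion, against 6, 11 and 6 in wild type with Hes1 loxP. In the Notch2 mutant it had 0, 1 and 1 counts with Hes1 deletion and 3, 2 and 2 with Hes1 loxP. Counts this low do not check the deletion in Notch2 mutant cells. Notch2 had a level of 156 ± 11.2 CPM (counts scaled to the library total in genes) in the Notch2 mutant with Hes1 loxP and 166 ± 6.67 CPM in wild type with Hes1 loxP (SD, n = 3 each). Since the place of the mutation is not given, this level does not check the genotype. All 12 osteoclast markers passed the filter and summed to 32233 to 51555 CPM. The samples of a group are called biological replicates, with no mouse or culture named, so the p-values measure the spread between these samples.

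The 4 genes lie at 2 places in the genome (GRCm38). Fcgr1 (ENSMUSG00000015947), the high-affinity receptor, is on the minus strand of chromosome 3, from 96282909 to 96293969. Its start lies 0.784 Mb from that of the protease gene Ctsk and 1.73 Mb from that of Notch2. Fcgr2b (ENSMUSG00000026656, 170958617 to 170976547, minus strand), Fcgr4 (ENSMUSG00000059089, 171018920 to 171029761, plus strand) and Fcgr3 (ENSMUSG00000059498, 171051174 to 171064935, minus strand) lie side by side within 106 kb of chromosome 1. Fcer1g (ENSMUSG00000058715) follows on the same chromosome, from 171229572 to 171234365. None of the 75-base words in Fcgr1 or Fcgr4 transcripts occurred in another gene, whereas 94 of the 1733 in Fcgr3 (5.42%) occurred in Fcgr2b. Of the 5768 in Fcgr2b, 313 (5.43%) occurred in some other gene, 94 of them in Fcgr3. How the authors' counting treated such reads is not stated.

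The promoter windows are shown because the members sit at 2 places in the genome and Fcgr1 had another pattern across libraries than the other 3. Each runs from 250 bases before to 50 bases after the RefSeq transcription start (GRCm38.p6), 5′ to 3′ on the gene's strand. Capitals mark the core of the PU.1 site (GAGGAA, or TTCCTC on the other strand) and the gamma interferon activation site (TTCNNNGAA). PU.1 is the transcription factor that sets myeloid identity, and the second motif serves the response to interferon gamma. The windows are chr3:96293920-96294219 for Fcgr1, chr1:170976022-170976321 for Fcgr2b, chr1:171059354-171059653 for the first of 2 RefSeq starts of Fcgr3, and chr1:171018676-171018975 for Fcgr4.
Fcgr1: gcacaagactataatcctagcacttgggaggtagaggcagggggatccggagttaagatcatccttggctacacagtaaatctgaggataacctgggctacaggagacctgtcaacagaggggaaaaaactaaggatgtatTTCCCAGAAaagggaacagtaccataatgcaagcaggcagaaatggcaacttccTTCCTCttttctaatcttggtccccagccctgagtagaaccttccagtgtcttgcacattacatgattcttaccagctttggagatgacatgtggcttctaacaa
Fcgr2b: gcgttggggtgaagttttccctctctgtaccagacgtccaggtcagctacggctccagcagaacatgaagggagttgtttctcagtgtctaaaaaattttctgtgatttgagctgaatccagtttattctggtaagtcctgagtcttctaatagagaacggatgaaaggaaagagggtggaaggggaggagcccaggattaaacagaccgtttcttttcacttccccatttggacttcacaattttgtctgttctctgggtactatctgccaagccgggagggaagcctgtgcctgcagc
Fcgr3: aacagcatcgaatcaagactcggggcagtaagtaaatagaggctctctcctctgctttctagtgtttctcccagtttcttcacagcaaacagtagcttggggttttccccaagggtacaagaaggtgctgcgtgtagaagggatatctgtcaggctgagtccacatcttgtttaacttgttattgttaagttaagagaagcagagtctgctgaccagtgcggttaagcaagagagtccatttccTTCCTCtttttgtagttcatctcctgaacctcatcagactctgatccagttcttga
Fcgr4: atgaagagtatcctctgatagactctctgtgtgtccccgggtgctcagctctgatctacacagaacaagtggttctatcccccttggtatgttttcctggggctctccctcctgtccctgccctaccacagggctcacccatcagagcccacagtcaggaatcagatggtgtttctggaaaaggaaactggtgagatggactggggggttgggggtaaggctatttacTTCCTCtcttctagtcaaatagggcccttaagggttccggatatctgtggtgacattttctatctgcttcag
The PU.1 core was found on the strand opposite to the gene's in the 3 activating receptors, at positions -55 in Fcgr1, -6 in Fcgr3 and -22 in Fcgr4, counting the base before the start as -1. It occurs in 28.3% of 32851 RefSeq promoters of this length. The gamma interferon activation site was found in Fcgr1 alone of the 4, as TTCCCAGAA at -109, and is present in 8.3% of promoters. Its first 6 letters are also the reverse match of TGGGAA, the core bound by RBPJ, the DNA-binding partner of Notch, which 25.6% of promoters hold. The core of the interferon-stimulated response element (in 3.44% of promoters) was found in Fcgr4 alone, as GAAAAGGAAA at -73. The N-box of Hes factors (CACNAG, in 42.5% of promoters) was found in Fcgr1 at -249, Fcgr3 at -192 and Fcgr4 at -63. Both strands were searched, and a match of letters is a description of the window, not a bound site. The Fcgr2b window held none of these 5 motifs.

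The osteoclast cultures of all groups contained RNA of the 4 receptors, at levels in the middle to upper range of the genes tested. Which cells of these bulk samples held the RNA cannot be told. Per length, as TPM over the union of a gene's exons, Fcgr3, the low-affinity activating receptor, was highest at 85.0 ± 12.6 TPM (SD, n = 12). Fcgr4, an activating receptor of intermediate affinity, was at 58.8 ± 12.7 TPM, Fcgr1 at 44.0 ± 11.8 TPM and Fcgr2b at 31.3 ± 3.05 TPM (SD, n = 12 each). Fcgr3 thus stood above 84.5% of the genes tested and Fcgr2b above 64.0%. Fcgr3 came first in all 12 libraries, and the full order held in 11 of them.

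The lower part of that order rests on the length used for Fcgr2b, whose exon union of 5790 bases is longer than its principal transcript of 3544 bases. With principal transcript lengths, Fcgr3 was still first in all 12 libraries, at 73.1 TPM, with Fcgr4 at 39.2, Fcgr2b at 34.1 and Fcgr1 at 29.4 TPM. Fcgr4 then preceded Fcgr2b in 9 libraries and followed it in 3, so those neighbours in the order were not apart. The gamma chain Fcer1g was far above its receptors, at 993 ± 48.4 TPM over exon unions (SD, n = 12).

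**Figure D1:**
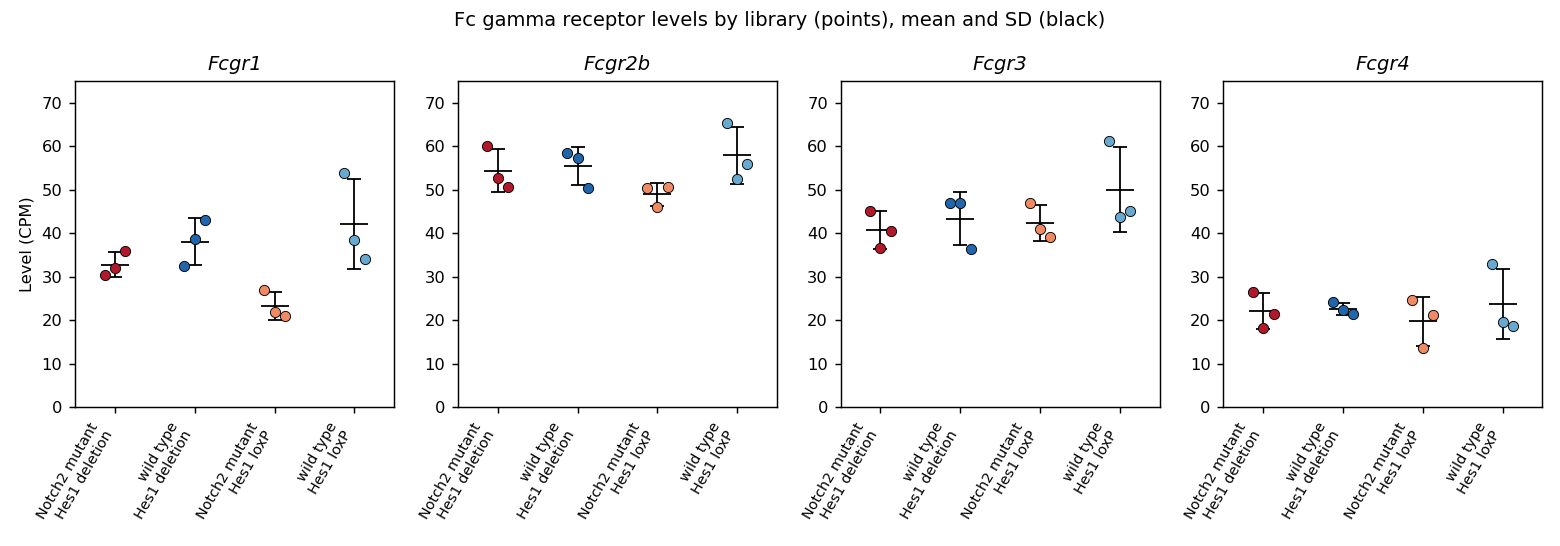
Level of each Fc gamma receptor in CPM (y axis from 0) in the 12 libraries (points), by group, with the mean and SD in black (n = 3). The 3 Fcgr1 points of the Notch2 mutant with Hes1 loxP, 21.0 to 27.0 CPM, lie below every other Fcgr1 point; replicate 1 of wild type with Hes1 loxP is the highest point in all 4 panels.

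In Notch2 mutant osteoclasts with Hes1 loxP, Fcgr1 fell to 0.564 of the wild type level with Hes1 loxP, while the 3 receptors of chromosome 1 did not pass the test. Fcgr1 had 27.0, 21.9 and 21.0 CPM in the Notch2 mutant, against 53.9, 38.4 and 34.2 CPM in wild type (374, 393 and 374 counts against 748, 740 and 615). The groups did not overlap. The log2 fold change was -0.83 ± 0.14 (SE), and the edgeR quasi-likelihood test gave an adjusted p of 0.0127. Fcgr1 was 1 of 104 genes called in this comparison (0.776% of those tested) and 1 of 85 called lower (0.634%). In such bulk samples, fewer cells of a type and less RNA per cell cannot be told apart.

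Wild type replicate 1 was the highest library for all 4 receptors, and without it Fcgr1 was at -0.63 (adjusted p = 0.0350). Without Notch2 mutant replicate 3 it was at -0.77 and no longer passed (adjusted p = 0.0604, edgeR). With the stromal marker score as a covariate it was at -0.82 ± 0.20 (SE), with an edgeR adjusted p of 0.222.

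Fcgr2b had 50.5, 45.9 and 50.6 CPM in the Notch2 mutant, against 65.3, 52.5 and 56.0 CPM in wild type, with Hes1 loxP in both. The mutant libraries were all below the wild type ones, as for 11.1% of the genes tested, yet the log2 fold change of -0.21 ± 0.09 (SE) did not pass after adjustment (edgeR, unadjusted p = 0.0242, adjusted p = 0.263), and 14.2% of genes had an unadjusted p under 0.05. Fcgr3 had 47.0, 40.9 and 39.2 CPM in the mutant and 61.3, 43.7 and 45.2 CPM in wild type. These groups overlapped, and the log2 fold change was -0.21 ± 0.12 (SE, edgeR adjusted p = 0.462). Fcgr4 was at 24.6, 13.6 and 21.3 CPM in the mutant and 33.0, 19.6 and 18.8 CPM in wild type, with a log2 fold change of -0.23 ± 0.20 (SE, edgeR adjusted p = 0.665). The log2 fold changes of the 3 chromosome 1 receptors were thus all negative, beside a median of 0.00 over all genes tested, of which 50.9% were above 0. With each library left out in turn, Fcgr2b ranged from -0.28 to -0.13, Fcgr3 from -0.30 to -0.056 and Fcgr4 from -0.40 to 0.049. Values nearest 0 came without wild type Hes1 loxP replicate 1 for Fcgr2b and Fcgr3, and Fcgr4 was at 0.049 without that library.

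With Hes1 deleted, the Notch2 genotypes were closer together. Fcgr1 had 30.3, 32.1 and 35.9 CPM in the Notch2 mutant, against 32.5, 38.6 and 43.1 CPM in wild type, with a log2 fold change of -0.20 ± 0.14 (SE, edgeR adjusted p = 0.840). The 2 groups overlapped. The values of Fcgr2b (-0.02 ± 0.09), Fcgr3 (-0.08 ± 0.12) and Fcgr4 (-0.03 ± 0.20) were small beside their errors, and 0 of the 4 members passed by edgeR, DESeq2 or limma-voom or had an unadjusted p under 0.05. In this comparison 0.0149% of genes were called and 6.69% had an unadjusted p under 0.05.

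In the comparisons of Hes1 deletion with Hes1 loxP no receptor passed the test after adjustment with the filter on low counts. In wild type cells Fcgr1 had 32.5, 38.6 and 43.1 CPM with the deletion, against 53.9, 38.4 and 34.2 CPM with Hes1 loxP, a log2 fold change of -0.16 ± 0.13 (SE, edgeR adjusted p = 0.943). Fcgr3 was at -0.21 ± 0.12 (SE, adjusted p = 0.894), and 0 of the 4 members were called by any of the 3 tools or had an unadjusted p under 0.05, where 0.0373% of all genes were called and 5.93% had such a p. In Notch2 mutant cells the Hes1 deletion libraries lay above the Hes1 loxP libraries for Fcgr1, at 30.3, 32.1 and 35.9 CPM against 27.0, 21.9 and 21.0 CPM. The groups did not overlap, as for 8.1% of genes in that direction. The log2 fold change of 0.47 ± 0.14 (SE) had an unadjusted p of 0.00433 and did not pass after adjustment (edgeR adjusted p = 0.816). With no filter on low counts Fcgr1 was called at 0.46 ± 0.08 (SE, edgeR adjusted p = 2.4e-05), among 110 genes in all. The filter keeps Fcgr1, so its value hardly moved and the SE alone became smaller. With the filter, Fcgr2b (0.12 ± 0.09), Fcgr3 (-0.08 ± 0.12) and Fcgr4 (0.13 ± 0.21) did not pass. Here too 0.0373% of genes were called, with 4.76% at an unadjusted p under 0.05.

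Whether the Notch2 difference depends on Hes1 was tested by the interaction of the 2 factors. For Fcgr1 the log2 difference between the Notch2 fold changes, Hes1 deletion minus Hes1 loxP, was 0.63 ± 0.20 (SE), with an unadjusted p of 0.00507 and an adjusted p of 0.999 (edgeR). No gene passed this test (0% called) by edgeR, DESeq2 or limma-voom, and 506 genes (3.78%) had an unadjusted p under 0.05 in edgeR. With no filter on low counts the interaction was called for Fcgr1 (edgeR adjusted p = 9.9e-05) and for 63 genes in all. The Fcgr1 value was still 0.63, with a smaller SE of 0.11. Without wild type Hes1 deletion replicate 3, 12 genes were called. Averaged over both Hes1 states, Fcgr1 was lower in the Notch2 mutant, at -0.51 ± 0.10 (SE), with an edgeR adjusted p of 0.0131. In that average 1.89% of genes were called, 1.12% were called lower and 16.3% had an unadjusted p under 0.05. Fcgr2b (-0.11 ± 0.06), Fcgr3 (-0.15 ± 0.09) and Fcgr4 (-0.13 ± 0.14) did not pass. The Notch2 comparisons share their libraries with the Hes1 comparisons, so these values are not independent of each other.

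**Figure D2:**
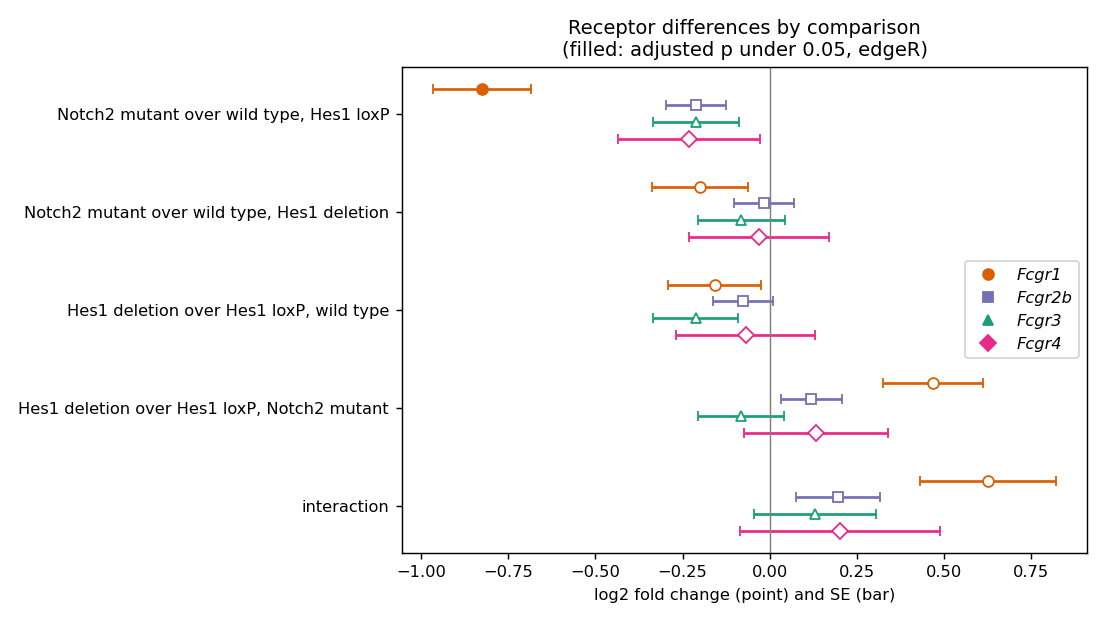
Log2 fold change (point) and standard error (bar) of the 4 receptors in the 4 comparisons of 2 groups and the interaction, in the direction named on the y axis, with filled symbols for an adjusted p under 0.05 in edgeR. Fcgr1 in the Notch2 mutant with Hes1 loxP, at -0.83, is the one filled point among these; the mean over both Hes1 states is not drawn.

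The make-up of the family was described as each receptor's share of the summed TPM of the 4. Fcgr1 made up 15.9, 16.7 and 14.4% in the Notch2 mutant with Hes1 loxP, against 22.2, 22.9 and 20.7% in wild type with Hes1 loxP. With Hes1 deleted it made up 16.9, 21.7 and 22.0% in the Notch2 mutant and 18.2, 21.4 and 26.3% in wild type. The Fcgr1 share was thus lower in every Notch2 mutant loxP library than in every other library. Because the difference in Fcgr1 was known before this share was chosen, no test is given for it.

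Fcgr2b, the inhibitory receptor, held 14.9 ± 1.07% of the family in Notch2 mutant libraries and 14.0 ± 1.06% in wild type libraries (SD, n = 6 each). The difference of 0.884 points did not exceed the spread (two-sided exact permutation test within Hes1 states, 400 permutations, p = 0.205, smallest possible p = 0.005). It held 14.6 ± 0.811% with Hes1 deletion and 14.3 ± 1.43% with Hes1 loxP (SD, n = 6 each), a difference of 0.295 points (same test within genotypes, exact p = 0.665). Set against Fcgr3 alone, which shares sequence with it, the Fcgr2b share was 2.32 points higher with Hes1 deletion than with Hes1 loxP (exact p = 0.04). This p is not adjusted for the number of settings tried. The 3 other settings with all libraries had exact p of 0.485 to 0.79. In the Notch2 comparison the share against Fcgr3 alone did not pass (exact p of at least 0.105).

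**Figure D3:**
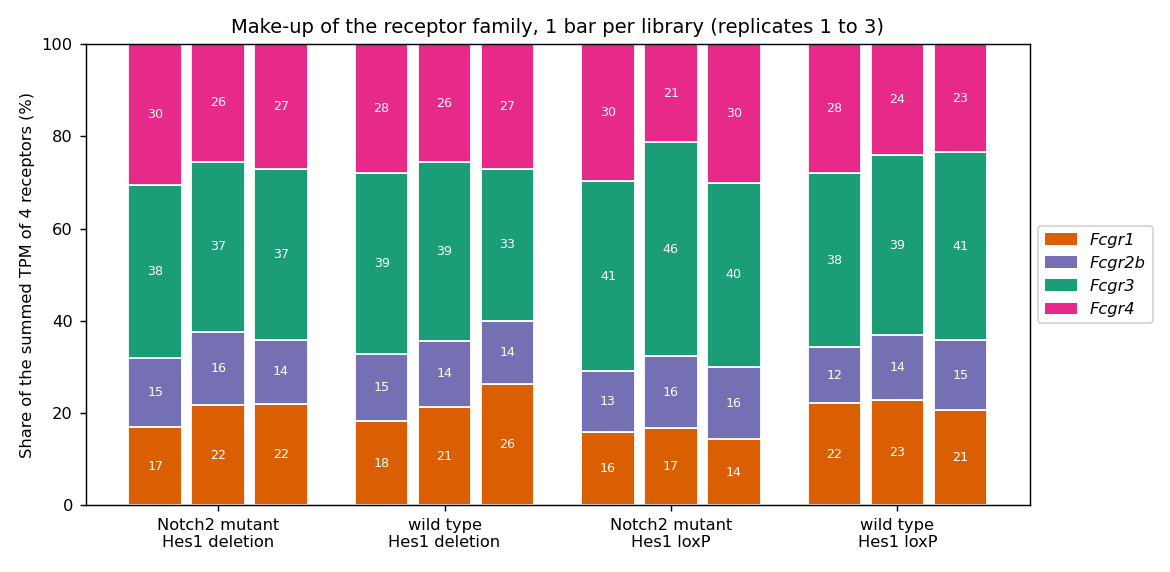
Share of each receptor in the summed TPM of the 4 Fc gamma receptors (y axis, percent; numbers give the rounded share), 1 bar per library in 4 groups of 3. The Fcgr1 segment is 14.4 to 16.7% in the Notch2 mutant with Hes1 loxP and 20.7 to 22.9% in wild type with Hes1 loxP; the Fcgr3 segment is the largest in every bar.

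Genes around Fcgr1 were examined because it lies on the chromosome of Notch2 and Ctsk. Of 72 annotated genes starting within 500 kb of the Fcgr1 start, 32 others were tested. In the Notch2 comparison with Hes1 loxP none was called by edgeR, DESeq2 or limma-voom. In edgeR 5 had an unadjusted p under 0.05, against 14.2% of all genes tested. The 32 genes had a median log2 fold change of 0.07 and a range of -0.93 to 1.33. Their smallest edgeR adjusted p was 0.126, that of the histone gene Hist2h2be. The chromosome 1 cluster had 25 other tested neighbours of 49 annotated genes, with a median of -0.02 and none called by the 3 tools, 4 having an unadjusted p under 0.05 in edgeR.

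Ctsk, the collagen-degrading cathepsin of osteoclasts, lies beyond that window on chromosome 3 and had another pattern. It was lower with the Hes1 deletion than with Hes1 loxP, at -1.11 ± 0.07 in Notch2 mutant cells and -0.99 ± 0.07 in wild type cells (SE, edgeR adjusted p = 8.89e-08 and 4.84e-07). Fcgr1 was at 0.47 and -0.16 in the same comparisons, called in neither.

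**Figure D4:**
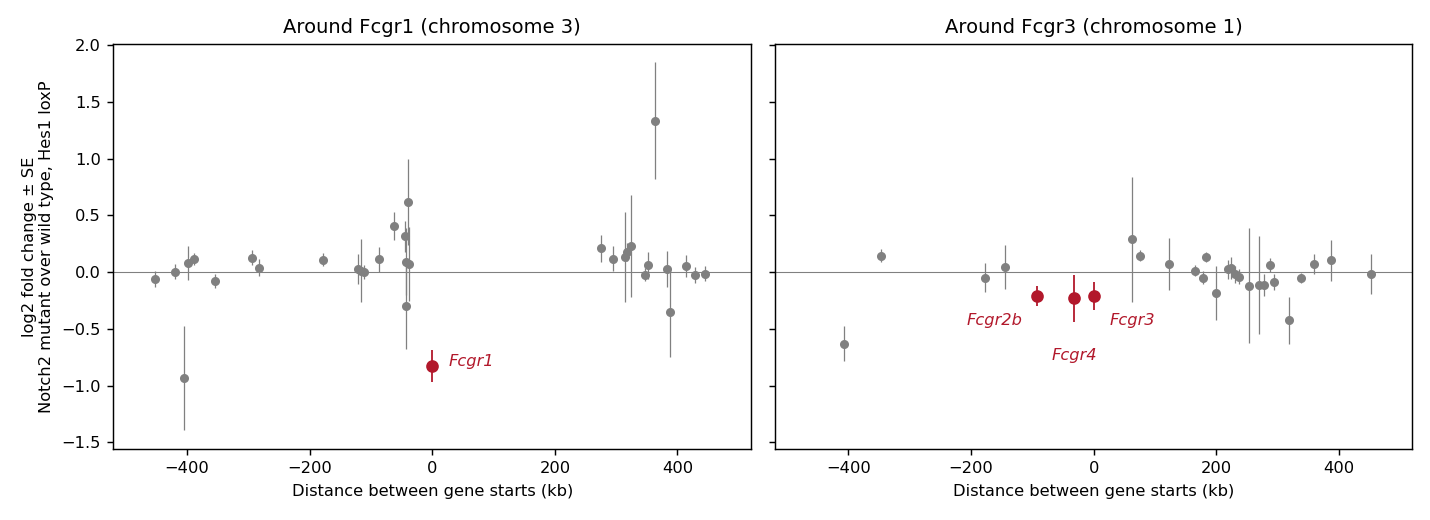
Log2 fold change ± SE (y axis) in the Notch2 mutant over wild type, both with Hes1 loxP, of the tested genes within 500 kb of Fcgr1 (left) and of Fcgr3 (right), by the distance between gene starts (x axis, kb). Red points are Fc gamma receptors and grey points other genes; Fcgr1 is the one called gene among those drawn.

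Of the genes that carry the receptors' signal, 1 was called in the Notch2 mutant with Hes1 loxP. Over all genes tested, 0.776% were called in this comparison and 14.2% had an unadjusted p under 0.05. Fcer1g had a level of 248 ± 18.0 CPM in the mutant and 262 ± 11.5 CPM in wild type (SD, n = 3 each), with a log2 fold change of -0.05 ± 0.06 (SE, edgeR adjusted p = 0.755). Together with the kinases Syk, Lyn, Fgr and Src it formed a list of 5 genes with a median of -0.02, of which none was called by edgeR, DESeq2 or limma-voom and 1 had an unadjusted p under 0.05. Of 15 adaptors and effectors, Dock2, which activates the GTPase Rac in migrating leukocytes, was called lower, at -0.25 ± 0.05 (SE, edgeR adjusted p = 0.0302). It lost the call without wild type Hes1 loxP replicate 1 or 2 or Notch2 mutant Hes1 loxP replicate 2 or 3 (adjusted p = 0.0702 to 0.144), fitted on the compared groups alone (0.0509) and with the stromal covariate. The list's median was 0.04. Among 9 inhibitory phosphatases and adaptors, Inpp5d, the partner of Fcgr2b, was at 0.02 ± 0.04 (SE). None of the 9 was called by the 3 tools, the median was 0.02, and 3 had an unadjusted p under 0.05.

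The NADPH oxidase, which makes superoxide when Fc gamma receptors are engaged, had 6 members tested and none called by the 3 tools, with a median of -0.02. Of the 6 members, 3 were positive and 3 negative, from -0.25 to 0.20. The membrane subunit Cybb was at -0.25 ± 0.08 (SE, edgeR adjusted p = 0.151), and the smallest adjusted p, 0.138, was that of another member. Unadjusted p was under 0.05 for 3 of the 6, against 14.2% of all genes. Of 12 other ITAM and ITIM receptors and adaptors, none was called by edgeR or limma-voom and 1 by DESeq2, with 4 at an unadjusted p under 0.05 and a median of 0.01. Averaged over both Hes1 states, Dock2 (-0.22 ± 0.04) was lower in the Notch2 mutant than in wild type, while Rac2 (0.17 ± 0.04), the haematopoietic Rac, and the collagen receptor Oscar (0.22 ± 0.05) were higher (SE, edgeR adjusted p = 0.00668, 0.0499 and 0.0224). All 3 lost the call with the stromal covariate (adjusted p = 0.257 for each). Rac2 also lost it at a mean count of at least 50 (0.0508) and kept it only when the library left out was wild type Hes1 loxP replicate 3, Notch2 mutant Hes1 loxP replicate 2, wild type Hes1 deletion replicate 1 or Notch2 mutant Hes1 deletion replicate 2. Oscar lost it without wild type Hes1 loxP replicate 1 or Notch2 mutant replicate 3 of either Hes1 state (0.0575 to 0.0894).

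Of 13 other receptors for immunoglobulin listed, 5 passed the filter: the neonatal receptor Fcgrt (33.3 to 47.2 CPM over the 12 libraries), the cytosolic receptor Trim21 (10.5 to 16.7 CPM), Fcrl1 (10.1 to 15.8 CPM), Fcrls (3.04 to 6.86 CPM) and Fcrlb (3.03 to 5.32 CPM). None of the 5 was called in the Notch2 comparison with Hes1 loxP by edgeR, DESeq2 or limma-voom. Unadjusted p was under 0.05 for 2 of them, against 14.2% of all genes. Their values had a median of 0.04, with 3 positive, up to 0.31, and 2 negative. The lowest was Fcrls, an Fc receptor-like scavenger receptor, at -0.68 ± 0.19 (SE), with an edgeR adjusted p of 0.0911. The IgE receptor alpha chain Fcer1a had 1 count in 12 libraries and the polymeric immunoglobulin receptor Pigr had 0.

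**Figure D5:**
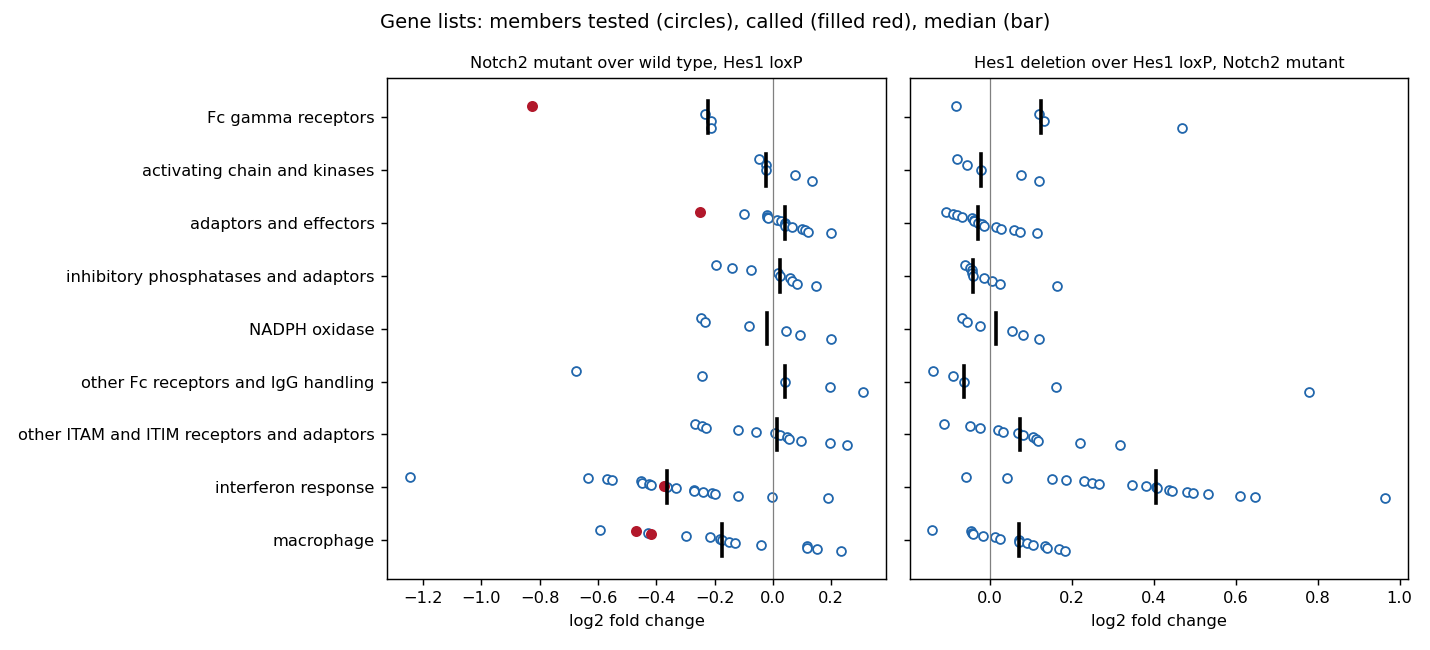
Log2 fold change (x axis) of the tested members of each gene list (circles), with called members filled red and the list median as a black bar, for the Notch2 mutant over wild type with Hes1 loxP (left) and Hes1 deletion over Hes1 loxP in the Notch2 mutant (right). Interferon response genes have a median of -0.36 on the left and 0.41 on the right, and the signalling lists sit near 0 in both. The panels share the Notch2 mutant Hes1 loxP libraries, so they are not independent.

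Most interferon response genes had values in the direction of Fcgr1 in the 2 comparisons where the Fcgr1 groups did not overlap. These comparisons were picked by the Fcgr1 values. Both use the same 3 Notch2 mutant Hes1 loxP libraries, on opposite sides, so they are not independent. In the Notch2 mutant with Hes1 loxP, 18 of 19 had a negative log2 fold change, with a median of -0.36. One was called by edgeR, Oasl1, an interferon-induced inhibitor of antiviral signalling, at -0.37 ± 0.08 (SE, edgeR adjusted p = 0.0410). DESeq2 called 3 of the 19 and limma-voom 1. With no filter on low counts edgeR called 10 of the 19, among 657 genes in all. The summed level of the 19 ranged from 394 to 552 CPM in the mutant and 517 to 773 CPM in wild type. Without wild type replicate 1, 13 were negative, the median was -0.09 and none was called by edgeR. Oasl1 lost its call without any 1 of the 6 libraries compared or without Notch2 mutant Hes1 deletion replicate 3 (adjusted p = 0.0514 to 0.115), and with the stromal covariate (adjusted p = 0.340). With Hes1 deleted the median was -0.08, and the sums were 551 to 606 CPM in the Notch2 mutant and 542 to 669 CPM in wild type. In Notch2 mutant cells 18 of 19 were higher in value with Hes1 deletion than with Hes1 loxP, with a median of 0.41. None of the 19 was called there by edgeR, DESeq2 or limma-voom, and 10 had an unadjusted p under 0.05, against 4.76% of all genes. With no filter on low counts edgeR called 11 of the 19 there, among 110 genes in all. In wild type cells, where Fcgr1 was at -0.16 with Hes1 deletion over Hes1 loxP, 14 of the 19 were positive, with a median of 0.05. All genes tested had a median of 0.00 in these comparisons, and 49% were above 0 in the Hes1 comparison in Notch2 mutant cells. Averaged over both Hes1 states, Oasl1 (-0.25 ± 0.06) and Ifi44 (-0.78 ± 0.20) were called lower in the Notch2 mutant (SE, edgeR adjusted p = 0.0319 and 0.0497), and the list's median was -0.19. Oasl1 lost this call without any 1 of 6 libraries: wild type Hes1 loxP replicates 1 and 2, Notch2 mutant Hes1 loxP replicate 2, wild type Hes1 deletion replicate 3, and Notch2 mutant Hes1 deletion replicates 1 and 3 (adjusted p = 0.0533 to 0.0966). Ifi44 kept its call only when the library left out was wild type Hes1 loxP replicate 2 or 3, Notch2 mutant Hes1 loxP replicate 1 or wild type Hes1 deletion replicate 1, and lost it by limma-voom (adjusted p = 0.0606), at a mean count of at least 50 and with the stromal covariate. The part of this list in the Fcgr1 result was not tested.

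The summed markers of 4 cell types did not overlap between the Hes1 loxP groups, nor did the natural killer and T cell sums, which were near 0. Of all genes tested singly, 18.3% did not overlap in this comparison and 0.776% were called. The neutrophil ranges (270 against 272 CPM) and stromal ranges (247 against 252 CPM) were close at their nearest libraries. Of 15 macrophage markers, 11 were negative in the Notch2 mutant with Hes1 loxP, with a median of -0.18. Adgre1, which encodes the macrophage antigen F4/80, was called at -0.42 ± 0.08, and the scavenger receptor Msr1 at -0.47 ± 0.08 (SE, edgeR adjusted p = 0.0158 and 0.00750). Adgre1 lost its call without wild type Hes1 loxP replicate 1 or 2 or Notch2 mutant Hes1 loxP replicate 2 or 3 (adjusted p = 0.0588 to 0.0726), and both lost it with the stromal covariate. The summed macrophage level was 9709 to 10779 CPM in the mutant and 10939 to 11838 CPM in wild type. Stromal and osteoblast markers, of which 12 of 15 were tested, summed to 117 to 247 CPM in the mutant and 252 to 297 CPM in wild type. Neutrophil markers summed to 209 to 270 CPM in the mutant and 272 to 346 CPM in wild type. Osteoclast markers summed to 46737 to 51555 CPM in the mutant and 39911 to 42899 CPM in wild type. Of these lists, the chemokine Cxcl12 (stromal, -2.98 ± 0.68) and the collagenase Mmp8 (neutrophil, -0.46 ± 0.10) were called lower, and the fusion protein Ocstamp (osteoclast, 0.25 ± 0.06) was called higher (SE, edgeR adjusted p = 0.0493, 0.0384 and 0.0493). Mmp8 lost its call without any 1 of the 6 libraries compared (adjusted p = 0.0708 to 0.108). Cxcl12 kept its call only when the library left out was Notch2 mutant Hes1 loxP replicate 1 or wild type Hes1 deletion replicate 1 or 3, and Ocstamp only when it was wild type Hes1 loxP replicate 3, wild type Hes1 deletion replicate 3 or Notch2 mutant Hes1 deletion replicate 1. All 3 lost it with the stromal covariate. Cxcl12 also lost it with the replicate block (edgeR adjusted p = 0.0530) and fitted on the compared groups alone (0.0522). It had 96 counts over all 12 libraries, a mean of 0.472 CPM, so its fold change rests on few reads. In the Notch2 mutant with Hes1 loxP, 11 of the 12 osteoclast markers were positive, with a median of 0.21. Unadjusted p was under 0.05 for 9 of the 12, against 14.2% of all genes. DESeq2 called 7 of the 12 and limma-voom 2. Averaged over both Hes1 states, edgeR called 7 of the 12 higher and 0 lower in the Notch2 mutant, where 1.89% of all genes were called. Each of the 7 kept its call in 8 to 18 of 19 alternatives, but not with the stromal covariate. None of the sums of these 4 cell types overlapped between the Hes1 loxP groups, and no marker of any list was at 0 over all 12 libraries. Only the stromal score entered a fit as a covariate, and the part of these cell types in the Fcgr1 result was not tested.

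Of 8 dendritic cell markers 7 were tested, and these 7 were positive in the Notch2 mutant with Hes1 loxP, with a median of 0.45. Against 14.2% of all genes, 5 of the 7 had an unadjusted p under 0.05, and none was called by edgeR, DESeq2 or limma-voom. They summed to 102 to 147 CPM in the mutant and 80.6 to 120 CPM in wild type, which overlapped. The 7 B cell markers summed to 3.33 to 6.89 CPM over the libraries, the 7 natural killer and T cell markers to 0 to 1.92 CPM and the 6 mast cell and basophil markers to 2.75 to 6.02 CPM. The part of these cells in the receptor levels was not tested.

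The 4 receptors did not follow one pattern across libraries. Over the 12 libraries, which share depth and the 4 groups, log2 CPM of Fcgr2b correlated with that of Fcgr4 at r = 0.79 (rho 0.65) and of Fcgr3 at r = 0.77 (rho 0.64). Fcgr3 and Fcgr4 were at r = 0.67 (rho 0.65). Fcgr1 was less close to each of them, with r of 0.40 to 0.54 and rho of 0.14 to 0.27. Without the 2 libraries farthest from the median of the first gene of a pair, r was 0.41 to 0.57 among the 3 chromosome 1 receptors and -0.32 to 0.37 between Fcgr1 and these, so the relations rest in part on those libraries. These are descriptions, without a test, and wild type Hes1 loxP replicate 1 was the highest point in each.

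Among 10428 genes, those closest to Fcgr1 were Parp14 (r = 0.94, rho 0.88), Ctsc (0.93, 0.68), Ms4a6c (0.93, 0.85), Oas3 (0.93, 0.92) and Ifitm3 (0.92, 0.87). Parp14, Oas3 and Ifitm3 are known as interferon-induced genes. Of the 5, Ifitm3 alone was called in the Notch2 mutant with Hes1 loxP, at -0.40 ± 0.08 (SE, edgeR adjusted p = 0.0190). It is not in the interferon response list, and it was picked by its closeness to Fcgr1, so its call is no separate result. With the 2 libraries farthest from the Fcgr1 median left out, the r of the 5 genes was 0.83 to 0.93.

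Closest to Fcgr2b were B2m (r = 0.89, rho 0.85), the light chain of MHC class I, H2-D1 (0.89, 0.78), Gstt3 (0.87, 0.81), Pnp2 (0.87, 0.85) and Tapbp (0.86, 0.68). Closest to Fcgr4 were the immunoproteasome subunit Psmb9 (r = 0.94, rho 0.85), Tapbp (0.92, 0.84), Trim12c (0.91, 0.84), H2-D1 (0.91, 0.71) and Cd300ld (0.91, 0.99). H2-D1 and the peptide loading factor Tapbp were thus on both lists. Closest to Fcgr3 were Mmp27 (r = 0.93, rho 0.83), the scavenger receptor Marco (0.91, 0.66), Tmem50a (0.90, 0.87), the macrophage pore protein Mpeg1 (0.90, 0.85) and Snx6 (0.90, 0.79). No gene on the Fcgr1 list was on any of the other 3.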

How the data were processed

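Whole-number counts per gene, not normalized, were deposited by the authors for each library. Per the labels' protocols, the libraries were stranded mRNA, sequenced as 75-base paired reads in 1 pool. HISAT2, SAMtools, Picard, HTSeq and DESeq2 are named with the build GRCm38, per the submitters' processing notes. The labels and files state no versions, annotation release or strand setting. Fcgr2b shares 155 exon bases with the antisense gene Gm38204, which had 2 counts in all. Names came from GENCODE M21, which matched 52081 of 55414 IDs (IDs with no name took up to 0.180% of a library's counts). The 5 summary rows, 15.8 to 19.0% of a file's total, were left out.

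Groups were taken from the labels. CPM and TPM were computed here over counts in genes, without TMM, using the exon union length or the principal transcript (added after seeing the data). All 12 libraries entered 1 edgeR 4.0.16 quasi-likelihood fit (R 4.3.3) with a mean per group, TMM, and the filterByExpr minimum count of 10 and total of 15. P-values, two-sided, were adjusted by Benjamini-Hochberg over 13403 genes, with a threshold of 0.05. SE is the log2 fold change divided by the root of F. Shares were tested by exact permutation over libraries (scipy 1.17.1). Counting depth was 243 to 1044 counts per receptor and library, and since no molecular identifiers are described, reads need not be separate molecules.

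The members and lists were chosen with earlier results of these data known. Named genes are the receptors, Fcer1g, Notch2, Hes1, called members of the pathway lists, the 5 genes of highest Pearson r of log2 CPM (mean log2 CPM of at least 1) per receptor, and called neighbours. Members named to say what a list holds (Syk, Lyn, Fgr, Src, Fcgrt, Trim21, Fcrl1, Fcrlb), and Hist2h2be, Ctsk, Fcrls, Fcer1a, Pigr, Cybb, Inpp5d, Adgre1, Msr1, Cxcl12, Mmp8 and Ocstamp fall outside that rule and were picked with their values in view. Alternative settings were DESeq2 1.42.0, limma-voom (limma 3.58.1), scaling by RLE, dropping the filter or asking for a mean count of 50, a replicate block, the groups compared alone, a stromal score as covariate, and each library left out. The fit was tested on simulated data. Single-cell measurements are not analysed here. No protein sequence was used here, and some members of the gene lists are not reported here.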

Additional observations from a re-analysis of the deposited data

How the results depend on the processing

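Fcgr1 in the Notch2 mutant with Hes1 loxP was called in every alternative but the stromal covariate (-0.82) and the fit without Notch2 mutant replicate 3 (-0.77), with -0.96 to -0.63 over the libraries left out. The mean over Hes1 states failed under the stromal covariate alone (-0.51). With no filter on low counts Fcgr1 passed for Hes1 deletion in Notch2 mutant cells (0.46) and for the interaction (0.63), at smaller SE than with the filter. With that covariate these values changed sign: Fcgr2b with Hes1 deletion (0.064), Fcgr4 in the Notch2 comparisons (0.10 with Hes1 loxP, 0.31 with Hes1 deletion, 0.20 over both) and for Hes1 deletion in Notch2 mutant cells (-0.075), and Fcer1g with Hes1 loxP (0.067). The cause was not tested. Fcer1g over both Hes1 states was near 0 and negative with RLE scaling (-0.00114), no filter (-0.00559), limma-voom (-0.00132), the replicate block (-0.000658) and DESeq2 (-0.000900). With principal transcripts Fcgr1 was at 29.4 TPM and Fcgr4 at 39.2 TPM.

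Leaving out 1 library changed the sign of some values that had not passed. In the Notch2 comparison with Hes1 loxP the ranges were -0.40 to 0.049 for Fcgr4 and -0.091 to 0.013 for Fcer1g. With Hes1 deletion they were -0.093 to 0.032 for Fcgr2b and -0.18 to 0.093 for Fcgr4. Over both states they were -0.22 to 0.0098 for Fcgr4 and -0.022 to 0.032 for Fcer1g. For Hes1 deletion in wild type they were -0.29 to 0.041 for Fcgr1, -0.14 to 0.0086 for Fcgr2b and -0.21 to 0.22 for Fcgr4, and in Notch2 mutant cells -0.089 to 0.30 for Fcgr4. For the interaction they were -0.024 to 0.22 for Fcgr3 and -0.079 to 0.37 for Fcgr4. The Fcgr2b share with Hes1 deletion ranged from -0.13 to 0.65 points.

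The number of genes called in the Notch2 comparison with Hes1 loxP (104) was 242 by DESeq2, 657 with no filter and 2 with the stromal covariate. It was 26 to 289 over the libraries left out, the libraries being wild type Hes1 loxP replicate 1 (26) and replicate 2 (35), Notch2 mutant Hes1 loxP replicate 2 (46) and replicate 3 (28), and wild type Hes1 deletion replicate 3 (289). With Hes1 deletion (2) it was 1 by limma-voom and 1 at a mean count from 50 up, 138 with no filter, 0 with the covariate and 0 to 5 over libraries left out. For Hes1 deletion (5 in each genotype), wild type had 2 at a mean count from 50 up, 135 with no filter and 3 to 26 over libraries left out. Notch2 mutant cells had 3 by limma-voom and with the covariate, 2 at a mean count from 50 up, 110 with no filter and 3 to 6 over libraries left out. The interaction had 63 with no filter and 0 to 12 over libraries left out. The mean over Hes1 states (253) had 420 by DESeq2, 853 with no filter, 1 with the covariate and 63 to 319 over libraries left out.

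Same-numbered libraries did not deviate together (r -0.0896 to 0.107 in 18 pairs, 1 over 0.1). The replicate block changed no receptor's call. It moved the exact p of the Fcgr2b share in the Notch2 comparison (0.884 points) to 0.0312, the smallest value that the blocked permutation test can give. The Fcgr2b share against Fcgr3 alone was 2.32 points higher with Hes1 deletion than with Hes1 loxP, against 0.295 to 0.557 points in the 3 other settings with all libraries.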
